A study of Mus musculus with 26 samples.

Results

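Restraint was compared with control in experiment 1 of a study of bone marrow leukocytes, on 10 of the study's 26 arrays. The 5 restraint arrays and the 5 control arrays were chosen by their sample titles, and arrays of mice that also received propranolol were not part of the comparison. All 26 arrays, those included, served to estimate the spread of each probe. Every array held RNA from femoral marrow of male SCID mice (CB17/Icr-Prkdcscid) aged 6 to 8 weeks. All of these mice, restrained or not, carried a transplanted human acute lymphoblastic leukemia, and the leukemia cells were gated out when the marrow cells were sorted. SCID mice have a mutation in Prkdc, which blocks the joining of antigen receptor genes, so both groups lacked most mature B and T cells. Restrained mice had been randomized to restraint stress, in which an animal is confined so that it can move little, and control mice were randomized to the control condition. How long each bout of restraint lasted is not given in the sources used here, and neither is whether each array stands for a separate mouse, so the p-values measure the spread between arrays. The comparison addresses what restraint stress does to transcripts of marrow leukocytes, among them those tied to inflammation, DNA damage and aging.

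Stress reaches bone marrow through nerves that release noradrenaline and through hormones of the adrenal gland, chiefly adrenaline and glucocorticoids. Beta-adrenergic receptors raise cyclic AMP, which activates the transcription factor CREB and its immediate early target genes, and phosphodiesterases end that signal by degrading cyclic AMP. Glucocorticoids act through the receptor encoded by Nr3c1 and dampen much of the inflammatory program. That program is driven in myeloid cells by NF-kappaB, a family of transcription factors held in the cytoplasm by inhibitors of the I-kappaB family, and it includes the cytokine Tnf and the inflammasome sensor Nlrp3.

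The leukocyte marker Ptprc, which encodes CD45, was detected on all 10 arrays and differed by 0.02 ± 0.13 (log2 change, restraint minus control, ± SE). A slightly dimmer Ptprc probe changed by 0.37 ± 0.19 and did not pass (limma adjusted p = 0.569). Between 44.6% and 51.2% of the 25697 probes were detected per array, 47.1% ± 1.18 on restraint arrays and 48.9% ± 2.64 on control arrays (SD, n = 5 each). That difference of -1.78 percentage points gave a two-sided exact permutation p of 0.198 over 252 assignments of the arrays, the smallest possible p being 0.00794. All 5 control arrays and 3 restraint arrays lay on slide 1, with the controls at positions 1 to 5 and the restraint arrays at positions 6 to 8, and restraint replicates 4 and 5 lay at positions 1 and 2 of slide 2. Within slide 1, position and condition cannot be told apart. Control replicate 5 stood apart from the rest, with the lowest share of detected probes and a mean level of 9.40 over 24 ribosomal protein genes, against 10.003 to 10.22 on the other control arrays. Control replicate 3 stood apart in its low level of red cell genes. Levels are given as normalized log2 intensity and each probe is compared only with itself.

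In restrained mice, 30 genes rose and 5 fell among the 10792 tested, by limma with a Benjamini-Hochberg adjusted p under 0.05, which is 0.278% and 0.0463% of the genes and 0.324% in all. The risers were led by the inflammasome sensor Nlrp3, the antigen-presenting cell protein Cd83, the kinase Pim1, the cyclic AMP phosphodiesterase Pde4b, the AP-1 subunit Jund and the cytokine Tnf. The 5 genes that fell were Sphk1, Srsf7, Ube3c, Lin54 and Gtse1. Of the 30 rises, 20 were at least 2-fold, and of the 5 falls, 2 were. Sizes depended on the normalization. With the deposited normalized matrix, 1 rise (Nlrp3) and 0 falls were at least 2-fold, the median size over the 35 genes was 0.696 on the log2 scale, against 1.232 here, and 15 of the 35 folds moved by more than 1.5 times. All 5 restraint arrays lay above all 5 control arrays for 28 of the 30 rises, against 1.73% of all genes tested, and below them for 4 of the 5 falls, against 1.69%. These genes were called from the same arrays, so nothing is read from that separation. Restraint replicate 1 was the highest restraint array for 20 of the 30 rises, and control replicate 5 was the lowest control array for 13. The number of calls depended on single arrays, with 9 calls without restraint replicate 1, 11 without control replicate 4 and 94 without control replicate 3. Within slide 1, with 3 restraint and 5 control arrays, limma called 0 genes while 1073 had an unadjusted p under 0.05, and all 35 genes kept their sign there, with changes of 2.19 for Nlrp3, 1.98 for Cd83, 1.54 for Pde4b and 1.52 for Tnf. The 9 genes Cd83, Hilpda, Maff, Nfkbib, Pde4a, Pde4b, Rel, Tgif1 and Tnf were called whichever of the 10 arrays was left out. In those runs the spread still came from the arrays of all 6 groups, propranolol and experiment 2 included. Fitted to the 10 arrays alone, limma called 3 genes, Cd83, Hilpda and Nfkbib.

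**Figure D1:**
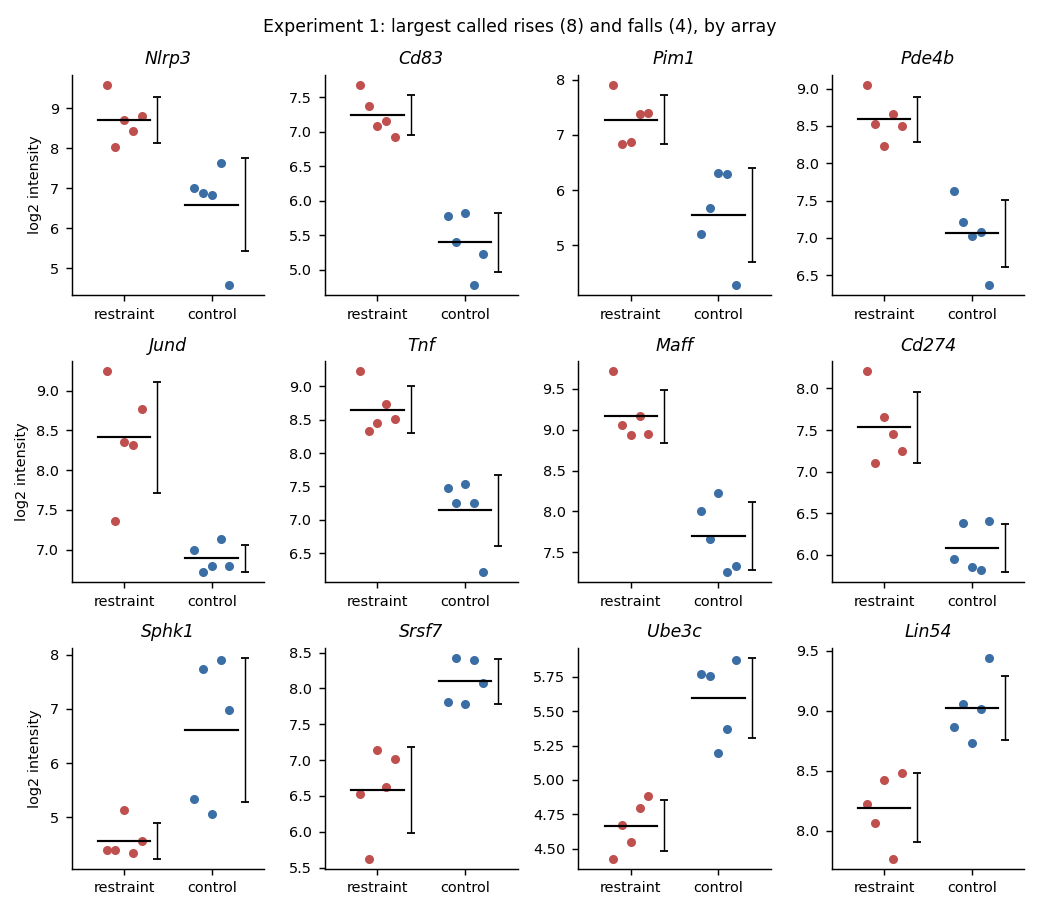
Normalized log2 intensity of the 8 largest called rises and the 4 largest called falls on each array (red, 5 restraint arrays; blue, 5 control arrays; replicate 1 to 5 from left to right in each group; horizontal line, mean; bar, SD). For the 8 rises every restraint array lies above every control array, and control replicate 5 is far below the other control arrays for Nlrp3 (4.58) and Tnf (6.22).

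The calls included genes of the cyclic AMP pathway and immediate early genes. Pde4b and Pde4a encode phosphodiesterases that degrade cyclic AMP, and both rose. Pde4b (probe ILMN_2697552, chromosome 4) measured 9.05, 8.52, 8.23, 8.66 and 8.49 on restraint arrays 1 to 5, against 7.62, 7.21, 7.02, 7.08 and 6.37 on control arrays 1 to 5. The lowest restraint array thus lay above the highest control array. The change was 1.53 ± 0.20 (log2, SE), or 2.89-fold, with a limma adjusted p of 0.000353. Pde4a (probe ILMN_2751548, chromosome 9) measured 7.78, 7.39, 7.14, 7.96 and 7.46 on restraint arrays, against 6.59, 6.33, 6.31, 6.40 and 5.74 on control arrays. It rose 2.42-fold (log2 change 1.27 ± 0.18 SE, limma adjusted p = 0.00105), again with no overlap, and 1.19-fold with the deposited matrix. Another member, Pde4d, changed by 0.68 ± 0.32 and did not pass (adjusted p = 0.51).

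Those phosphodiesterases were the calls in the list of receptors and the cyclic AMP pathway. The probes of Adrb1 and Adrb3 were detected on 0 of 10 arrays. Of the 16 tested genes of adrenergic receptors and the cyclic AMP pathway, 2 rose and 0 fell, with 9 positive and 7 negative changes and a median of 0.08, against -0.00 over all genes tested. At an unadjusted p under 0.05 the list had 3 positive and 0 negative changes, against 4.64% positive and 5.37% negative over all genes tested. Of all genes tested, 49.4% had a positive change. Counts in the lists that follow are to be read beside these shares.

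Of the 30 tested immediate early and cyclic AMP response genes, 6 rose and 0 fell. They were Pde4b, Jund, Maff, Nr4a1, Fosb and Nr4a2. Among all 30, 23 changes were positive and 7 negative, the median was 0.43, and at an unadjusted p under 0.05 there were 16 positive and 2 negative changes. Maff, a small bZIP transcription factor, measured 9.71, 9.06, 8.94, 9.17 and 8.95 on restraint arrays, against 8.01, 7.67, 8.23, 7.26 and 7.34 on control arrays. Its lowest restraint array exceeded its highest control array, and it rose 2.76-fold (log2 change 1.46 ± 0.25 SE, limma adjusted p = 0.00647). A second Maff probe changed by 0.48, and the rise was 1.82-fold with the deposited matrix.

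Nr4a1 and Nr4a2 encode orphan nuclear receptors that are induced within minutes to hours of many stimuli. Nr4a1 measured 8.14, 7.19, 7.44, 7.33 and 7.55 on restraint arrays, against 6.85, 6.30, 5.93, 5.99 and 5.95 on control arrays. Control replicate 1 came closest to the restraint arrays, and the groups did not overlap. Nr4a1 rose 2.51-fold (log2 change 1.33 ± 0.24 SE, limma adjusted p = 0.0175; 1.59-fold with the deposited matrix) and Nr4a2 rose 1.79-fold (0.84 ± 0.17, adjusted p = 0.0319).

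Members of the AP-1 family did not all move the same way. Jund measured 9.24, 7.36, 8.36, 8.32 and 8.77 on restraint arrays, against 7.002, 6.72, 6.80, 7.13 and 6.80 on control arrays. Its restraint arrays were spread widely, with replicate 2 lowest and replicate 1 highest, and it rose 2.87-fold (log2 change 1.52 ± 0.30 SE, limma adjusted p = 0.0249). Fosb measured 10.70, 10.62, 10.83, 10.41 and 10.41 on restraint arrays, against 9.80, 9.87, 10.07, 9.59 and 8.60 on control arrays. It rose 2.01-fold (adjusted p = 0.0444) with control replicate 5 lowest. Fos, the classical immediate early gene, measured 10.34, 10.003, 10.30, 10.01 and 10.94 on restraint arrays, against 10.90, 11.32, 11.13, 11.14 and 11.24 on control arrays. Its change of -0.83 ± 0.24 was negative and did not pass (limma adjusted p = 0.146). Egr2, a zinc finger transcription factor, had all restraint arrays (9.36 to 10.56) above all control arrays (8.23 to 9.06) and missed the threshold, with a change of 1.22 ± 0.27 (adjusted p = 0.0527).

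NF-kappaB genes rose in a subunit and an inhibitor. Rel encodes c-Rel, a DNA-binding subunit, and measured 7.97, 7.97, 8.12, 7.80 and 7.52 on restraint arrays, against 7.31, 6.56, 6.20, 6.27 and 6.85 on control arrays. The gap between restraint replicate 5 and control replicate 1 was small, with no overlap, and Rel rose 2.36-fold (log2 change 1.24 ± 0.18 SE, limma adjusted p = 0.00144). Nfkbib, which encodes the inhibitor I-kappaB beta, measured 8.58, 8.32, 8.29, 7.88 and 8.02 on restraint arrays, against 7.22, 6.81, 6.85, 6.76 and 7.22 on control arrays. It rose 2.37-fold with every restraint array above every control array (log2 change 1.25 ± 0.19 SE, adjusted p = 0.00216).

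Across the 16 tested NF-kappaB subunits and inhibitors, those 2 rose and 0 fell, 15 changes were positive and 1 negative, and the median was 0.39. At an unadjusted p under 0.05 the list had 8 positive and 0 negative changes. The feedback inhibitors Tnfaip3, which encodes the ubiquitin-editing enzyme A20, and Nfkbia, which encodes I-kappaB alpha, did not pass. Tnfaip3 lay at 10.62 to 11.29 on restraint arrays and 10.10 to 10.43 on control arrays (change 0.68 ± 0.17, limma adjusted p = 0.0837). Nfkbia lay at 8.67 to 9.47 on restraint arrays and 6.62 to 8.31 on control arrays (1.10 ± 0.30, adjusted p = 0.115). For both, the groups did not overlap. The mean of the 16 genes was 7.97, 7.89, 7.79, 7.78 and 7.77 on restraint arrays, against 7.50, 7.36, 7.43, 7.21 and 7.02 on control arrays.

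Promoter windows from 250 bases before to 50 bases after the start of each gene were read for 27 of the 30 rises (RefSeq, GRCm38.p6). They were searched on both strands for the NF-kappaB letters GGNNTTTCC, the full cyclic AMP response element TGACGTCA, its short form TGACGNNA, the AP-1 element TGANTCA and the GATA element AGATAA. The short form overlaps every full element. These 4 windows, of genes that rose, are shown as examples that hold the NF-kappaB letters or the full cyclic AMP element. They were picked after the matches were known, and capitals mark every match.
Nlrp3, chr11:59542436-59542735, plus strand: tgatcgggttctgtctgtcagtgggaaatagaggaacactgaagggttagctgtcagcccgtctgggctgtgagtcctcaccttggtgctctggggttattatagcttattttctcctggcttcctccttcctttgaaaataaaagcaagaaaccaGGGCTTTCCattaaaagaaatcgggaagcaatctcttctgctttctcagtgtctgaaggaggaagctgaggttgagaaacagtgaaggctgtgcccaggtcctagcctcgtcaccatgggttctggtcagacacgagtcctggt
Rel, chr11:23770920-23771219, minus strand: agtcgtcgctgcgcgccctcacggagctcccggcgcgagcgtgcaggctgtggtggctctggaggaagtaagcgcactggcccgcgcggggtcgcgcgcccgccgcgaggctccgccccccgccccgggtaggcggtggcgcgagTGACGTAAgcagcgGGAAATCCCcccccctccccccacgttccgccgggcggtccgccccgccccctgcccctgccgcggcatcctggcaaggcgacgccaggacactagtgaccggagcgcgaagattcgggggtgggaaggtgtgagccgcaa
Icam1, chr9:21015690-21015989, plus strand: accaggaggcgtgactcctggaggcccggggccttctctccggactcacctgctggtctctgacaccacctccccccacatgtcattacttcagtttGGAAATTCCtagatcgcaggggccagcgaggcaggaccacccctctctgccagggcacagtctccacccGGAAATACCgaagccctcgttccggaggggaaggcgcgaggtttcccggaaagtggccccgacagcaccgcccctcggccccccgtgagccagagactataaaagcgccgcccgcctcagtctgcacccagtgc
Maff, chr15:79347270-79347569, plus strand: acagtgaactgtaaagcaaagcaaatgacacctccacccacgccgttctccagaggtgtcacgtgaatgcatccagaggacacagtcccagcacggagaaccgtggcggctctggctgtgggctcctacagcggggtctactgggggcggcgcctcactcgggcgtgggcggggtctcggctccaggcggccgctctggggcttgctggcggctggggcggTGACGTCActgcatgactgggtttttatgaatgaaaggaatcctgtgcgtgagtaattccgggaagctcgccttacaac

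The Nlrp3 window held the NF-kappaB letters 94 bases before the start, and a second Nlrp3 window held them 122 bases before its own start. In Icam1 they occurred on the reverse strand 153 and 84 bases before the start. The Rel window held them at 91 bases before the start, close to a short cyclic AMP element at 105 bases, and the Maff window held the full cyclic AMP element at 29 bases. NF-kappaB letters were present in 5 of the 27 genes (18.5%), the remaining holders being Maff, in another window, and Pde4b, against 7.37% of the 8439 tested genes with a window. AP-1 letters were present in 14.8% of the genes that rose and 6.77% of the tested genes, the short cyclic AMP element in 18.5% and 12.5%, the full one in 3.7% and 3.39%, and the GATA letters in 14.8% and 8.67%. Among the 5 genes that fell, the NF-kappaB, AP-1 and GATA letters were each present in 1 gene (20%). Genes differ in how many windows they have, with 43 for the 27 genes that rose and 10807 for the 8439 tested genes. Per window, the shares were 14% and 6.14% for the NF-kappaB letters and 11.6% and 5.61% for AP-1. They were 11.6% and 10.4% for the short cyclic AMP element, 2.33% and 2.84% for the full one, and 9.3% and 7.15% for GATA. These are matches of letters, given as a description.

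Among 28 inflammatory cytokines and chemokines, 1 gene, Tnf, rose and 0 fell. Tnf (probe ILMN_2899863, chromosome 17), the cytokine that opens many inflammatory cascades, measured 9.22, 8.34, 8.45, 8.74 and 8.50 on restraint arrays, against 7.48, 7.25, 7.54, 7.25 and 6.22 on control arrays. No control array reached the lowest restraint array, and Tnf rose 2.83-fold (log2 change 1.503 ± 0.25 SE, limma adjusted p = 0.00607). The list as a whole had 23 positive and 5 negative changes and a median of 0.67, and 11 positive and 1 negative changes had an unadjusted p under 0.05. On average the 28 genes measured 8.43, 7.48, 8.05, 7.54 and 8.03 on restraint arrays, against 7.32, 7.38, 7.32, 7.12 and 7.21 on control arrays. Restraint replicates 2 and 4 lay just above the controls and the other three well above.

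The interleukin genes did not pass singly. Il1b, the cytokine that the inflammasome releases in mature form, measured 10.67, 9.69, 10.17, 10.09 and 10.45 on restraint arrays, against 9.38, 9.91, 9.67, 9.91 and 8.67 on control arrays. The groups overlapped at restraint replicate 2, and the change was 0.71 ± 0.27 (limma adjusted p = 0.334). Il1a was detected on 4 of 5 restraint arrays and 0 of 5 control arrays, at least 2.87-fold higher against the detection floor, and did not pass (adjusted p = 0.285). Il6 changed by 0.59 ± 0.33 (adjusted p = 0.623), Csf1 by 1.19 ± 0.39 (0.228), and the neutrophil chemokines Cxcl1 and Cxcl2 by 0.87 ± 0.27 (0.18) and 0.98 ± 0.24 (0.0886).

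Of 22 tested genes of the inflammasome and innate sensors, 1 gene, Nlrp3, rose and 0 fell. Nlrp3 (probe ILMN_1237471, chromosome 11) senses cell damage and assembles the platform that activates caspase-1. It measured 9.59, 8.02, 8.70, 8.43 and 8.81 on restraint arrays, against 7.01, 6.88, 6.82, 7.62 and 4.58 on control arrays. Control replicate 5 was far below the other controls, the probe was detected on 4 of the 5 control arrays, and the groups did not overlap. Nlrp3 rose 4.38-fold (log2 change 2.13 ± 0.41 SE, limma adjusted p = 0.0211), and its second probe changed by 2.05. The rise was 2.44-fold with the deposited matrix. The list had 17 positive and 5 negative changes, a median of 0.20, and 6 positive and 0 negative changes at an unadjusted p under 0.05. Among them, the lipopolysaccharide co-receptor Cd14 changed by 1.13 ± 0.26 (adjusted p = 0.0629) and the lectin receptors Clec4e and Clec4d by 1.17 ± 0.27 (0.0589) and 1.07 ± 0.28 (0.11). For Cd14 and Clec4e every restraint array exceeded every control array. A dimmer second Clec4e probe changed by 1.33 ± 0.19 and did pass (limma adjusted p = 0.00114). The brightest probe stood for the gene, so Clec4e is not counted among the rises.

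Surface proteins that antigen-presenting cells use to stimulate or restrain T cells included 3 of the rises. Cd83 (probe ILMN_2865016, chromosome 13), which stabilizes MHC class II and Cd86 on activated dendritic cells, measured 7.68, 7.37, 7.08, 7.15 and 6.92 on restraint arrays, against 5.78, 5.40, 5.82, 4.78 and 5.23 on control arrays. The groups were more than a full log2 step apart, and Cd83 rose 3.58-fold (log2 change 1.84 ± 0.23 SE, limma adjusted p = 0.000353) and 1.72-fold with the deposited matrix. Cd274, which encodes the checkpoint ligand PD-L1, measured 8.20, 7.10, 7.65, 7.45 and 7.25 on restraint arrays, against 5.95, 6.38, 5.85, 5.82 and 6.40 on control arrays, and rose 2.73-fold (1.45 ± 0.30, adjusted p = 0.0319) and 1.66-fold with the deposited matrix. Icam1, an adhesion molecule for leukocyte integrins, measured 9.47, 8.65, 8.91, 8.26 and 8.56 on restraint arrays, against 7.98, 7.77, 8.17, 7.86 and 7.21 on control arrays. It rose 1.96-fold (adjusted p = 0.0377), with restraint replicate 4 just above control replicate 3.

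These 3 genes were the calls among 11 costimulatory and checkpoint surface proteins, of which 8 changes were positive and 3 negative, with a median of 0.61. The costimulators Cd80 and Cd86 changed by 1.04 ± 0.30 (limma adjusted p = 0.14) and 0.61 ± 0.31 (0.56). All 13 tested genes of MHC class II presentation had positive changes, with a median of 0.49. None of the 13 passed in limma, and 6 positive and 0 negative changes had an unadjusted p under 0.05. Cd74, the invariant chain, lay at 9.47 to 10.36 on restraint arrays and 8.41 to 10.16 on control arrays (0.93 ± 0.33, adjusted p = 0.279), so the groups overlapped. The list's mean was 8.01, 7.81, 7.40, 7.72 and 7.74 on restraint arrays, against 7.30, 7.04, 7.87, 6.93 and 7.06 on control arrays, where control replicate 3 was high.

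Feedback regulators of kinase and cytokine signalling rose as well, 3 of 19 tested with 0 falls. Pim1, a kinase induced by cytokine receptors, measured 7.91, 6.83, 6.87, 7.37 and 7.40 on restraint arrays, against 5.20, 5.68, 6.31, 6.30 and 4.28 on control arrays, and rose 3.29-fold (log2 change 1.72 ± 0.37 SE, limma adjusted p = 0.0432). The control arrays were spread widely, and the lowest restraint array was above them all. The second Pim1 probe changed by 0.26, and Pim1 rose 1.38-fold with the deposited matrix. Dusp16, a phosphatase that switches off stress-activated kinases, rose 2.66-fold (1.41 ± 0.28, adjusted p = 0.0247) and 1.76-fold with the deposited matrix, with restraint arrays at 9.49 to 10.19 and control arrays at 7.14 to 8.88. Dimmer Dusp16 probes changed by 0.84 and 0.22 and did not pass (limma adjusted p = 0.27 and 0.885). Zc3h12a, which encodes Regnase-1, an enzyme that degrades cytokine transcripts, rose 1.81-fold (adjusted p = 0.031), with restraint arrays at 8.64 to 9.32 and control arrays at 7.86 to 8.69. For Zc3h12a the groups overlapped at restraint replicate 5 and control replicate 5. The list had 15 positive and 4 negative changes and a median of 0.24, and the phosphatase Dusp10 missed the threshold (1.40 ± 0.33, adjusted p = 0.0731).

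Of the 20 tested glucocorticoid response genes, 1 rose, Il1r2, and 0 fell. Il1r2 encodes the decoy receptor for interleukin 1 and is also a marker of mature neutrophils. It measured 11.01, 10.39, 10.66, 10.77 and 10.77 on restraint arrays, against 9.94, 9.60, 9.57, 9.27 and 10.39 on control arrays, and rose 1.95-fold (log2 change 0.96 ± 0.18 SE, limma adjusted p = 0.0195). Restraint replicate 2 and control replicate 5 met at the same rounded level. The list had 14 positive and 6 negative changes, a median of 0.26, and 4 positive and 0 negative changes at an unadjusted p under 0.05. The receptor gene Nr3c1 changed by -0.16 ± 0.28 (adjusted p = 0.943). The clock gene Per1, which glucocorticoids induce in many tissues, changed by 0.45 ± 0.25 (adjusted p = 0.62).

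Among 27 cell cycle inhibitors and p53 targets, Pmaip1 and Gadd45b rose and 0 fell. Pmaip1, which encodes the pro-apoptotic protein Noxa, measured 6.90, 5.93, 6.45, 6.44 and 7.15 on restraint arrays, against 5.69, 5.15, 5.33, 5.48 and 5.07 on control arrays. It rose 2.35-fold (log2 change 1.23 ± 0.27 SE, limma adjusted p = 0.0432) and 1.32-fold with the deposited matrix, with restraint replicate 2 nearest the controls. Gadd45b, a stress-induced growth arrest gene, measured 6.54, 6.10, 6.47, 6.04 and 6.61 on restraint arrays, against 5.62, 5.07, 5.46, 5.24 and 4.74 on control arrays. It rose 2.19-fold (1.13 ± 0.24, adjusted p = 0.0432; 1.32-fold with the deposited matrix), and the groups did not overlap.

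The other p53 targets did not pass. Cdkn1a, which encodes the cell cycle inhibitor p21, measured 8.23, 8.56, 8.17, 7.84 and 7.84 on restraint arrays, against 7.83, 7.40, 7.64, 6.42 and 7.29 on control arrays. The groups met without overlap, and the change of 0.81 ± 0.25 missed the threshold (limma adjusted p = 0.171). A slightly dimmer Cdkn1a probe changed by 1.07 ± 0.28 and missed it too (limma adjusted p = 0.108). Bbc3, which encodes the pro-apoptotic protein Puma, changed by 0.44 ± 0.12 (adjusted p = 0.114), and Trp53 itself by -0.04 ± 0.22 (0.985). The list had 19 positive and 8 negative changes and a median of 0.35, and 6 positive and 0 negative changes had an unadjusted p under 0.05. Probes of Cdkn2a, the p16 locus that marks senescent cells, were detected on at most 1 restraint array and 0 control arrays and were not tested. Of the 45 tested genes of the senescence-associated secretory phenotype, the set of factors released by senescent cells, 2 rose (Tnf and Icam1) and 0 fell, with 32 positive and 13 negative changes and a median of 0.18. Cxcl12 and Vegfa, also on that list, changed by -0.25 ± 0.49 (adjusted p = 0.948) and 0.15 ± 0.31 (0.951).

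**Figure D2:**
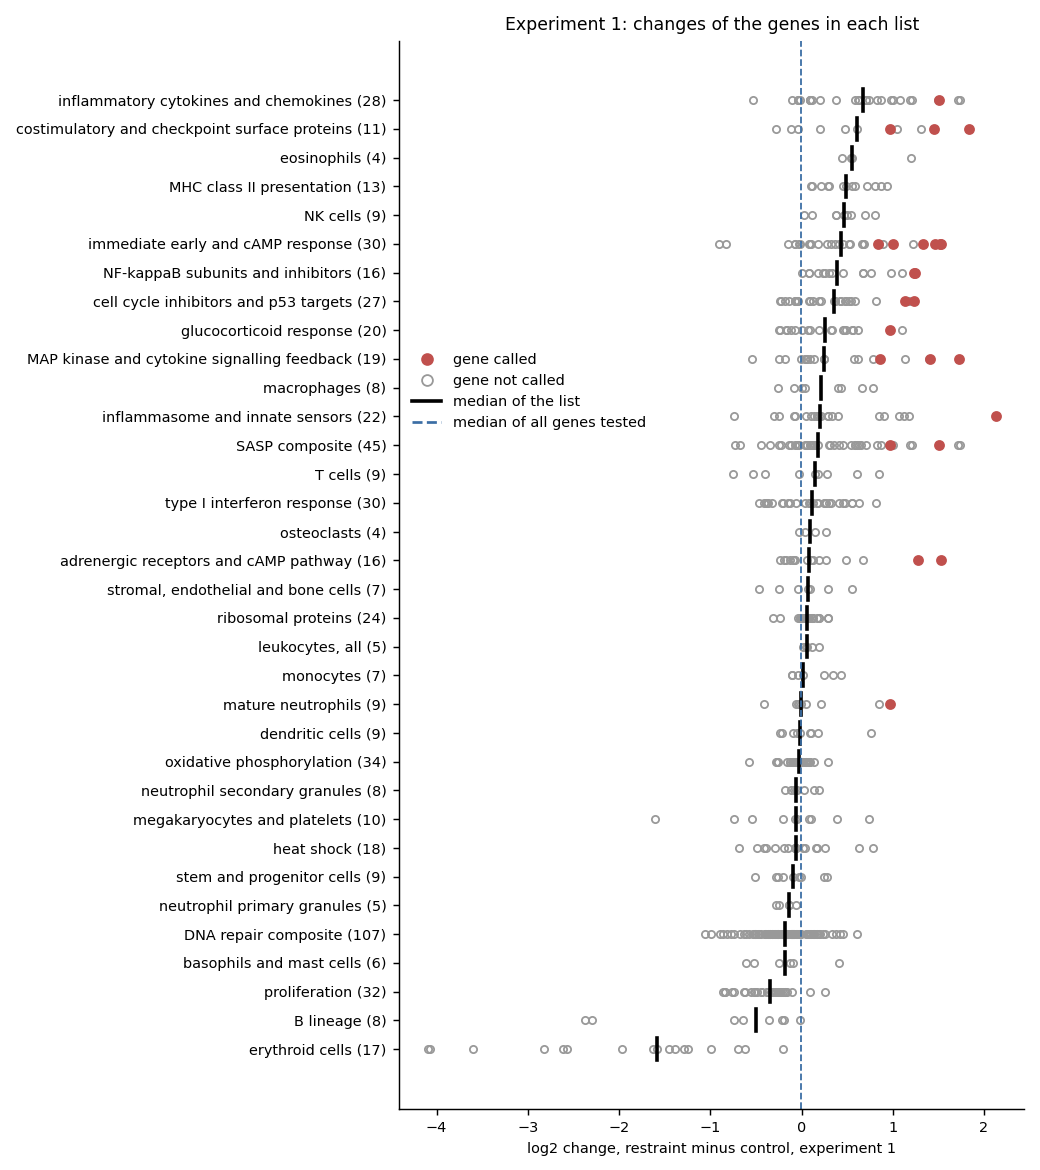
Log2 change of every tested gene in each list, restraint minus control in experiment 1 (red, called by limma at an adjusted p under 0.05; open grey, not called; black bar, median of the list; dashed line, median of all genes tested; number of genes tested in brackets). The called genes all lie to the right of 0 in these lists, and the erythroid list has the lowest median, -1.59.

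The remaining rises belonged to metabolism, transcription and other functions. Hilpda, a lipid droplet protein induced by low oxygen, measured 8.93, 8.44, 8.11, 8.24 and 8.31 on restraint arrays, against 7.22, 6.90, 7.25, 6.59 and 7.13 on control arrays, and rose 2.62-fold (log2 change 1.39 ± 0.23 SE, limma adjusted p = 0.00607; 1.601-fold with the deposited matrix). Tgif1, a homeobox repressor of TGF-beta signalling, measured 10.01, 9.64, 9.62, 9.42 and 9.25 on restraint arrays, against 8.94, 8.59, 8.48, 8.04 and 8.56 on control arrays, and rose 2.09-fold (adjusted p = 0.00607). In both the groups were apart. Ddit3, which encodes CHOP, a transcription factor of the endoplasmic reticulum stress response, rose 2.02-fold (adjusted p = 0.0319), at 9.86 to 10.35 on restraint arrays and 8.57 to 9.28 on control arrays. Rora, a nuclear receptor of the circadian clock, rose 2.42-fold at its brightest probe (1.27 ± 0.25, adjusted p = 0.0271), at 7.20 to 8.79 on restraint arrays and 6.38 to 7.18 on control arrays. Its other probe changed by -0.16, so the gene's probes disagreed, and the rise was 1.47-fold with the deposited matrix.

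The 6 remaining rises are named here after their values were seen. They were Cpeb2, an RNA-binding regulator of translation (1.97-fold), Emp1, a membrane protein (1.92-fold), Tor1aip1, of the inner nuclear membrane (1.84-fold), Tmem242 (1.83-fold), the transcription factor Ets2 (1.81-fold) and the potassium channel Kcnj2 (1.64-fold). Their limma adjusted p-values lay between 0.00926 and 0.0496, and for each of them every restraint array exceeded every control array.

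Of the genes that fell, Srsf7, a splicing factor, measured 6.52, 5.62, 7.15, 6.62 and 7.01 on restraint arrays, against 7.82, 8.42, 7.78, 8.40 and 8.07 on control arrays. It was 2.85-fold lower in restrained mice (log2 change -1.51 ± 0.27 SE, limma adjusted p = 0.0149) with no overlap, and 1.82-fold lower with the deposited matrix. Lin54 is a DNA-binding subunit of the DREAM complex, which controls cell cycle genes, and Gtse1 is expressed in the late cell cycle. Lin54 lay at 7.77 to 8.48 on restraint arrays and 8.73 to 9.44 on control arrays (-0.83 ± 0.18, adjusted p = 0.0432), and Gtse1 lay at 7.88 to 8.74 on restraint arrays and 9.05 to 9.14 on control arrays (-0.68 ± 0.15, adjusted p = 0.0472). Dimmer Gtse1 probes changed by -0.21 and -0.39 and did not pass (limma adjusted p = 0.923 and 0.769). Ube3c, a ubiquitin ligase, was detected on 0 of 5 restraint arrays and 5 of 5 control arrays (limma adjusted p = 0.0377). Against the detection floor it was at least 1.47-fold lower in restrained mice with the normalization used here. With the deposited matrix it was 1.23-fold lower.

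Sphk1, which makes the signalling lipid sphingosine 1-phosphate, measured 4.39, 4.39, 5.13, 4.34 and 4.57 on restraint arrays, against 5.34, 7.74, 5.07, 7.90 and 6.98 on control arrays. It was detected on 1 of 5 restraint arrays and on 5 of 5 control arrays, and its change was -2.04 ± 0.45 (limma adjusted p = 0.0444). Control replicates 1 and 3 lay close to the restraint arrays, with an overlap at control replicate 3, and the gene's second probe changed by 0.10. Sphk1 was 1.26-fold lower in restrained mice with the deposited matrix. The 5 further genes of smallest p among the falls, P2ry1, Spire1, Zbtb18, Pole4 and Gypc, did not pass, with adjusted p-values between 0.0528 and 0.0731. Pole4 is an accessory subunit of DNA polymerase epsilon and Gypc is a red cell membrane protein.

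DNA repair genes were mostly lower in restrained mice without a single call. Of the 107 tested genes in 6 repair lists, 20 changes were positive (18.7%, against 49.4% of all genes tested) and 87 negative, with a median of -0.18. The limma test called 0 of them. At an unadjusted p under 0.05 there were 0 positive and 12 negative changes (11.2%), against 4.64% and 5.37% of all genes tested. The mean of the 107 genes was 6.69, 7.02, 6.98, 6.89 and 6.85 on restraint arrays, against 7.07, 7.15, 7.02, 7.11 and 7.08 on control arrays. Restraint replicate 2 and control replicate 3 met at the same rounded level.

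All 10 mismatch repair genes had negative changes (median -0.24), as did 22 of 25 genes of homologous recombination and the Fanconi anemia pathway (-0.26) and 20 of 22 of damage signalling (-0.18). In base excision repair 13 of 18 were negative (-0.21), in end joining 8 of 10 (-0.12) and in nucleotide excision repair 14 of 22 (-0.11). Blm, a helicase of homologous recombination, measured 7.17, 7.61, 7.80, 6.88 and 7.22 on restraint arrays, against 8.34, 8.76, 7.73, 8.67 and 8.15 on control arrays, and did not pass (change -0.997 ± 0.385, limma adjusted p = 0.355). Only control replicate 3 overlapped the restraint arrays. A dimmer Blm probe changed by -1.15 ± 0.32 (limma adjusted p = 0.122), and the dimmest Blm probes changed by -0.24 and -0.20. The helicase Brip1, the recombination factor Rad54b and the replication fork protein Tipin changed by -1.06 ± 0.44, -0.90 ± 0.35 and -0.50 ± 0.17 (adjusted p = 0.401, 0.359 and 0.256). Msh6, a mismatch recognition protein, changed by -0.30 ± 0.13 (adjusted p = 0.466).

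Proliferation genes had mostly negative changes too, and their part in the repair values was not tested. Of 32 tested, 2 changes were positive and 30 negative, the median was -0.35, limma called 0, and 0 positive and 8 negative changes had an unadjusted p under 0.05. The mean of the list was 7.64, 8.47, 8.38, 8.14 and 8.07 on restraint arrays, against 8.47, 8.68, 8.44, 8.71 and 8.32 on control arrays, so restraint replicates 2 and 3 overlapped the controls. The cyclins Ccna2 and Ccnb1 changed by -0.84 ± 0.24 (limma adjusted p = 0.132) and -0.86 ± 0.48 (0.62).

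Red cell and B cell precursor transcripts had negative changes on the same arrays. In bulk samples, fewer cells of a type and less RNA per cell cannot be told apart. All 17 tested erythroid genes had negative changes, with a median of -1.59, and limma called 0 of them while 13 had an unadjusted p under 0.05. As a list they averaged 5.90, 5.68, 6.42, 5.19 and 5.72 on restraint arrays, against 7.76, 8.73, 5.52, 8.86 and 7.70 on control arrays. Control replicate 3 thus lay within the range of the restraint arrays and the other four control arrays lay above it. Klf1, a transcription factor of the red cell lineage, measured 4.54, 4.92, 5.11, 4.57 and 4.70 on restraint arrays, against 6.90, 8.61, 4.54, 8.84 and 7.78 on control arrays. It was detected on 1 restraint array and 4 control arrays, control replicate 3 lay among the restraint arrays, and the change of -2.57 ± 0.69 did not pass (limma adjusted p = 0.116).

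Limma called 0 erythroid genes when any single array other than control replicate 3 was left out. Without control replicate 3, limma called 8 of the 17 erythroid genes, all falls. In that run it called 57 falls among all 10792 genes tested. Control replicate 3 was the control array whose erythroid mean (5.52) lay within the range of the restraint arrays. Among those 8 were the transcription factors Klf1 and Gata1, the membrane proteins Slc4a1 and Rhd, the globin chaperone Eraf and the carbonic anhydrase Car2. The adjusted p-values of these 6 without that array were between 0.0156 and 0.0241, and the changes of all but Gata1 were between -2.27 ± 0.45 for Car2 and -5.39 ± 1.08 for Slc4a1. Gata1 was detected on 0 restraint arrays and 4 control arrays. With all arrays it was at least 1.68-fold lower in restrained mice and did not pass (adjusted p = 0.0991).

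All 8 tested B lineage genes had negative changes, with a median of -0.50, 0 calls in limma and 5 with an unadjusted p under 0.05. Rag1, a recombinase of early lymphocytes, measured 4.77, 4.65, 4.92, 4.81 and 4.69 on restraint arrays, against 5.96, 8.56, 4.97, 8.79 and 7.40 on control arrays. It was detected on 0 of 5 restraint and 5 of 5 control arrays, at least 4.29-fold lower in restrained mice, and did not pass (limma adjusted p = 0.0886). It was called without control replicate 3 (limma adjusted p = 0.0165), and 0 B lineage genes were called with any other of the 10 arrays left out. Vpreb1, a surrogate light chain of B cell precursors, changed by -2.30 ± 0.86 (adjusted p = 0.331).

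Markers of leukocytes in general, of neutrophils and of monocytes had medians near 0. The 5 general leukocyte genes had changes of 0.02 to 0.20, the neutrophil secondary granule genes a median of -0.06 over 8 genes, the primary granule genes -0.14 over 5, the mature neutrophil genes -0.00 over 9 and the monocyte genes 0.02 over 7. In these lists limma called only Il1r2. The monocyte list's mean ranged from 7.79 to 8.24 on restraint arrays and from 7.37 to 8.30 on control arrays. Macrophage genes had a median of 0.22, dendritic cell genes -0.02, T cell genes 0.15 and stromal, endothelial and bone cell genes 0.08, with 0 calls each. All 9 NK cell genes and all 4 eosinophil genes had positive changes, with medians of 0.46 and 0.55, and 0 calls and 2 unadjusted p-values under 0.05 in each list. Averaged per array, the NK list was 7.09 to 8.08 on restraint arrays and 6.90 to 7.47 on control arrays, and the eosinophil list was 8.46 to 9.60 on restraint arrays and 7.83 to 9.13 on control arrays. The part of these cell types in the inflammatory gene changes was not tested. Type I interferon response genes had a median of 0.11 over 30 genes, with 0 calls and 1 unadjusted p under 0.05 in each direction. That is 3.33% each way, near the 4.64% positive and 5.37% negative of all genes tested.

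**Figure D3:**
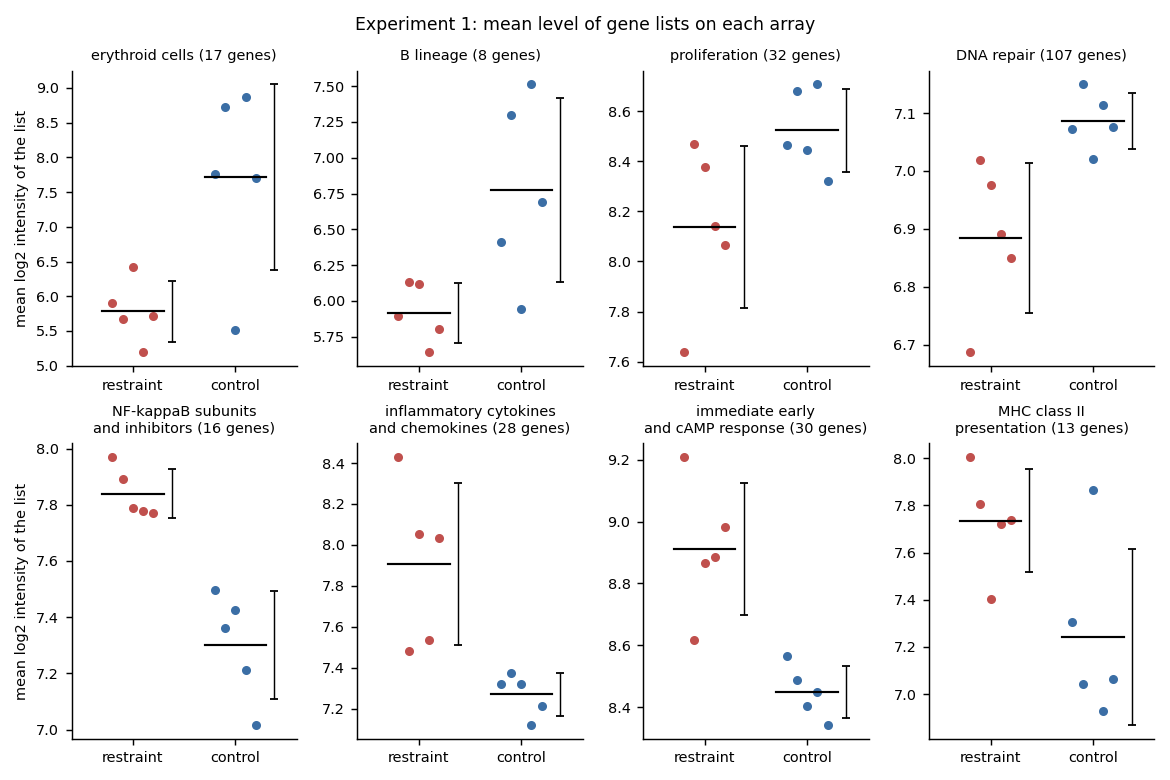
Mean normalized log2 intensity of 8 gene lists on each array (red, 5 restraint arrays; blue, 5 control arrays; replicate 1 to 5 from left to right; horizontal line, mean; bar, SD). Control replicate 3 is at 5.52 for the erythroid list, within the restraint arrays, and the NF-kappaB, cytokine and immediate early lists have all restraint arrays above all control arrays.

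The same contrast in experiment 2 used 5 other restraint and 5 other control arrays. There too the control arrays came before the restraint arrays in slide and position. Layout and condition were thus partly confounded in both experiments. Of the 35 genes called in experiment 1, 34 had the same sign of change in experiment 2, against 62.9% of all genes tested. The 30 rises had a median change of 1.23 in experiment 1 and 0.63 in experiment 2. In experiment 2, 23 of the rises were positive with an unadjusted p under 0.05, against 3.65% of all genes, and 2 of the falls were negative with one, against 4.73%. Experiment 2 called 2 genes by itself (0.0185%), and Cd83 was the gene called in both, with 1.32 ± 0.23 in experiment 2 (limma adjusted p = 0.0448). For 32 of the 35 the change was smaller in experiment 2. The 35 genes were chosen by their values in experiment 1, so that order of sizes is not independent of the choice. Both contrasts also share an estimate of each probe's spread. Genes chosen by a small p in experiment 1 can therefore have smaller p-values in experiment 2 too. The shares over all genes are thus not an equal baseline for the counts at an unadjusted p under 0.05.

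The genes differed in how far the experiments matched. Cd274 changed by 1.63 ± 0.30 in experiment 2, Rora by 1.29 ± 0.25 and Gadd45b by 1.06 ± 0.24, sizes close to those in experiment 1. Pmaip1 changed by 0.25 ± 0.27, Il1r2 by 0.16 ± 0.18, Jund by 0.28 ± 0.30 and Nr4a1 by -0.03 ± 0.24. The difference between the experiments was tested for every gene, and limma called 0 genes (0%), with 355 genes, or 3.29%, at an unadjusted p under 0.05. Of the 35 called genes, 17 had an unadjusted p under 0.05 for that difference, which again uses the values that chose them. For Nr4a1 the difference was 1.36 ± 0.35 (unadjusted p = 0.000663, adjusted p = 1 by limma). The other genes of smallest p were Ube2j2 (1.14 ± 0.26), Ctsw (1.45 ± 0.34), Rbpms (1.37 ± 0.33) and Pdss1 (-1.53 ± 0.39), with adjusted p = 1 for each. Their changes in experiment 1 were 0.50, 1.02, 0.33 and -0.68, and in experiment 2 they were -0.65, -0.43, -1.04 and 0.85.

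Gene lists were set side by side in both experiments. The erythroid median was -1.59 in experiment 1 and -1.20 in experiment 2, with all 17 genes negative in both, and the B lineage median was -0.50 and -0.63, with all 8 negative in both. Costimulatory and checkpoint proteins had medians of 0.61 and 0.62, and NF-kappaB genes 0.39 and 0.27. Immediate early genes had 0.43 and 0.07, inflammatory cytokines 0.67 and 0.17, and p53 targets 0.35 and 0.09. The NK cell median was 0.46 in experiment 1 and -0.01 in experiment 2, where 4 of the 9 genes were positive, and the eosinophil median was 0.55 and 0.05. Genes of MHC class II presentation had 0.49 and 0.26, and glucocorticoid response genes 0.26 and 0.03. DNA repair genes had -0.18 and -0.06, with 61 of 107 negative in experiment 2, and proliferation genes had -0.35 and -0.06. The difference between the experiments was not tested for the lists.

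**Figure D4:**
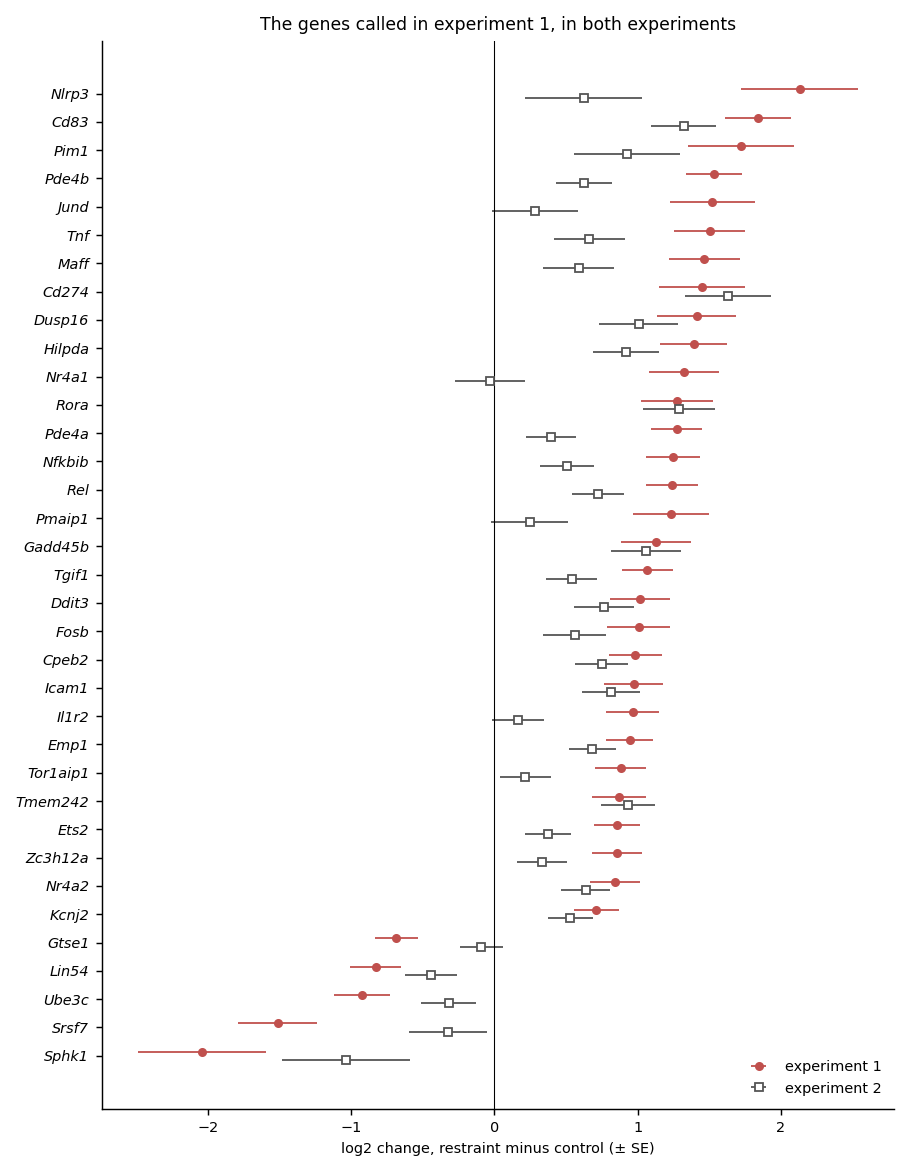
Log2 change, restraint minus control, of the 35 genes called in experiment 1, with SE bars from limma (filled red, experiment 1; open squares, experiment 2). Cd274, Rora and Gadd45b have close values in both experiments, and Nr4a1 lies at -0.03 in experiment 2.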

How the data were processed

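RNA of the sorted cells was amplified, biotin-labelled and hybridized to Illumina MouseRef-8 v2.0 beadchips, per the labels' protocols. The deposited raw matrix holds a mean bead intensity for 25697 probes per array, without background subtraction (the lowest value is 96.0), and, per the file headers, a detection p-value for each. GenomeStudio is named in the submitters' processing notes with no version. The deposited normalized matrix, an intensity whose method is not stated, served as an alternative. The raw matrix holds 6 further arrays in no group, which were not used.

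Intensities were corrected, quantile normalized and put on a log2 scale with limma's neqc (offset 16). Probes with a detection p under 0.05 on at least 3 of 26 arrays were kept, 15061 for 10792 genes, and the brightest kept probe stood for a gene. Probes were named through RefSeq (GRCm38.p6) by Entrez identifier (23788), accession (1148), symbol (99) or synonym (98), and 564 kept their name in the file. limma was fitted to all 26 arrays in 6 groups, with contrasts for restraint minus control in experiment 1 and for its difference from experiment 2, Benjamini-Hochberg adjusted over 15061 probes. A gene is called at an adjusted p under 0.05. Where all arrays of a group missed a gene, its fold is a lower bound against the detection floor. On data simulated for the experiment 1 comparison, 64% of 2-fold and 96% of 4-fold changes were recovered, with 4 false calls among 15061 probes. The simulated noise was normal and independent between probes and arrays, without outlying arrays or slide effects. These rates therefore need not hold for the measured arrays.

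The samples compared, the gene lists and the tests were chosen with earlier results of these data known, so no list carries a p-value. Named genes are the 20 largest rises and 10 largest falls (filled with falls of smallest p), for each list the called members with those of smallest p or extreme change, 16 genes of interest, and the 5 of smallest p for the difference between experiments. Same-numbered arrays did not deviate together (correlations -0.21 to 0.11), so numbers were not used as pairs. Fits were made in R 4.3.3 with limma 3.58.1 and data.table (version 1.17.8), and plots in matplotlib 3.10.9 with pandas 2.3.3. Results for some genes are not reported here.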

Additional observations from a re-analysis of the deposited data

Results flagged for a closer look

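An array was picked out where its distance to the nearest array of its group exceeded Dixon's limit, relative to the range of the group. Of 146 groups of 5 arrays examined, 9 were picked out, and chance picks out about 1 in 20, or 7.3 here. Among single genes, Nlrp3 measured 4.58 on control replicate 5 (the other control arrays 6.82 to 7.62), Tnf measured 6.22 on control replicate 5 (7.25 to 7.54), Dusp16 measured 7.14 on control replicate 4 (8.40 to 8.88), and Sphk1 measured 5.13 on restraint replicate 3 (the other restraint arrays 4.34 to 4.57). Among list means, restraint replicate 1 stood apart for adrenergic receptors and the cyclic AMP pathway, at 8.44 (8.19 to 8.26). Control replicate 5 stood apart for osteoclast markers at 6.99 (6.77 to 6.81), for cell cycle inhibitors and p53 targets at 7.59 (7.83 to 7.87), for base excision repair at 6.85 (6.97 to 6.996) and for ribosomal proteins at 9.40 (10.003 to 10.22). Without control replicate 5, 24 genes were called, 23 of them rises.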

How the results depend on the processing

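All 35 called genes kept their sign and an unadjusted p under 0.05 under every alternative run, but sizes and the count of calls moved. Folds of 15 of them moved by more than 1.5 times with the deposited normalized matrix (Pde4a to 1.19-fold), those of Dusp16, Pim1, Rora and Sphk1 with the mean of a gene's probes, and none under the other alternatives. The count was 10 (8 rises, 2 falls) with median scaling, 52 (41, 11) with the deposited normalized matrix, 3 (3, 0) from the 10 arrays alone, 41 (33, 8) with no filter, 43 (35, 8) for probes detected on 5 of the 10 arrays, 45 (39, 6) with the mean of a gene's probes, 389 (199, 190) with array weights, 56 (46, 10) with a trend and robust prior, 15 (13, 2) with slide as a fixed term, 33 (29, 4) with it as a random block, and 0 (0, 0) within slide 1. With the replicate block it was 26 (23, 3), 20 of them among the 35, and the replicate numbers are not known to pair arrays. Leaving out 1 array at a time gave 9 to 94 calls, 9 to 37 rises and 0 to 57 falls, with 9 without restraint replicate 1, 23 without replicate 3, 18 without replicate 4, 15 without replicate 5, 20, 94 and 11 without control replicates 2, 3 and 4. The difference between experiments was called for 1 gene, Ear10, with array weights. The median of the p53 target list was 0.17 with the deposited matrix and 0.23 with array weights (0.19 to 0.34 without 1 array at a time), that of costimulatory proteins was 0.97 for probes detected on 5 arrays, and with slide as a fixed term or within slide 1 the glucocorticoid median was 0.40 and the end joining median -0.21. The causes were not tested. Signal over background limits Ube3c, Sphk1, Rag1, Gata1, Klf1, Spire1 and Il1a, among others, which were not detected on most arrays of a group. Of the 35 called genes, 28 were detected on all 10 arrays. Nlrp3, Cd83, Pim1, Gadd45b and Pmaip1 were each detected on all restraint arrays and 4 control arrays.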
